A study of Mus musculus with 12 samples.

Results

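The mir-10, mir-99/100 and mir-125 families of mouse microRNAs (miRNAs) are described here by their 8 precursor hairpins, mmu-mir-10a and mmu-mir-10b, mmu-mir-99a, mmu-mir-99b and mmu-mir-100, and mmu-mir-125a, mmu-mir-125b-1 and mmu-mir-125b-2, written without the species prefix from here on. Members were chosen by hairpin name, and they are 8 of the 1050 hairpins that had a read in any of the 12 small RNA libraries. All 8 had reads in every library and passed the filter on low counts in every comparison. The sperm libraries came from the epididymis of C57BL6/J males that were fed from 4 weeks of age, for 7 weeks, either a control diet (CD, 16% of energy from fat) or a high-fat diet (HFD, 69% by the sample labels, while the methods of the study give another figure), with 3 libraries per diet and the sperm of 3 mice pooled in each. The other 6 libraries came from TM4, a cell line derived from mouse Sertoli cells, the somatic cells that nurse germ cells in the testis. There were 2 libraries each of untreated cells (Ctrl), of cells given 10 µM Compound C for 12 h (CC, an inhibitor of the energy sensor AMPK) and of cells overexpressing angiogenin from a plasmid (Ang OE, a ribonuclease that cuts tRNAs). No library of cells with an empty vector was analysed here, so the plasmid and angiogenin cannot be told apart. The methods of the study also speak of batch effects in the cell line data from sample preparation, and the sources used here do not give the batch of a library, so a batch that separates the TM4 groups cannot be told apart from the treatments. The angiogenin mRNA is not measured by small RNA sequencing. The sources do not say whether the TM4 libraries came from separate cultures, so p-values there measure only the spread between these libraries.

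miRNAs are cut from hairpin transcripts, and a short mature strand is loaded into an Argonaute protein. It recognizes mRNAs mainly through its seed, bases 2 to 8, so miRNAs with the same seed form a family with overlapping targets. The mir-10 genes lie in the Hox clusters, whose transcription factors pattern the body axis. The mir-99/100 and mir-125 genes are neighbours, together with a let-7 hairpin, in clusters that animals have kept through long evolution. mir-99 and mir-100 are known to target mTOR, the kinase that AMPK restrains, and mir-125b, the relative of the worm developmental timing gene lin-4, is known from differentiation and blood cell formation.

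The mature 5′ strands are shown because their seeds define the families and because their likeness decides which reads can be assigned. Each is written 5′ to 3′ with the seed in capitals. Sequences and positions are from RefSeq on GRCm38.p6, in which all 8 hairpins were found, all on the plus strand. The mir-10 strands share 1 seed and differ at 1 base, U12A, where positions count from the 5′ end and mir-10a is written first.
mir-10a: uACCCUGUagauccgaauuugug
mir-10b: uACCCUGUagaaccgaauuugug
The 3 strands of the mir-99/100 family share another seed. mir-99a and mir-100 are identical over their first 15 bases and differ only by U16A, with mir-99a written first, whereas mir-99b has 4 substitutions relative to mir-99a.
mir-99a: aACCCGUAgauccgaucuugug
mir-99b: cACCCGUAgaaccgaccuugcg
mir-100: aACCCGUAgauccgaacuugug
The mir-125 strands share a seed of their own, also held by miR-351-5p, miR-6367 and miR-6394 in the table. The 2 mir-125b hairpins give the same 5′ strand and differ only in the rest of the hairpin.
mir-125a: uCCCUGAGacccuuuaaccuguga
mir-125b: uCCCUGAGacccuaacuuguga
The mir-10 and mir-99/100 families also share sequence that runs from the end of the seed into the bases after it. mir-10a and mir-100 share a run of 11 bases, GUAGAUCCGAA, which starts at base 7 of mir-10a and at base 6 of mir-100.

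The 5′ strand of mir-10a lies at chr11:96317186-96317208 and that of mir-10b at chr2:74726074-74726096. By the GENCODE annotation of a later build, used for names only, mir-10b lies in an intron of Hoxd3 and Hoxd4, and mir-10a overlaps no gene and has Hoxb4 and Hoxb3 as its nearest coding genes. The other members lie in 3 clusters. On chromosome 16, mir-99a, let-7c-1 and mir-125b-2 lie within 47400 bases, from 77598940 to 77646339, and both members are in an intron of the non-coding gene Mir99ahg. On chromosome 9, mir-100, let-7a-2 and mir-125b-1 lie within 50565 bases, from 41531437 to 41582001, with both members in an intron of Mir100hg. On chromosome 17, mir-99b, let-7e and mir-125a lie within only 683 bases, from 17830194 to 17830876, in an intron (mir-99b) or exon (mir-125a) of Spaca6, a gene of sperm and egg fusion.

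Libraries held 11412945 to 14822686 miRNA reads in sperm and 27651384 to 35704399 in TM4. Levels are given as counts per 1000000 miRNA reads (CPM) or as a percentage of miRNA reads, and both fall when another abundant miRNA rises. Sperm libraries carried miRNAs known from other cells. The 6 smooth muscle and stroma miRNAs summed to 3.48 to 5.25% of miRNA reads with CD and 3.20 to 5.78% with HFD. Nearly all of this was mir-143. The summed level of 4 red blood cell miRNAs was 2.62 to 3.45% of miRNA reads with CD and 2.52 to 5.06% with HFD, and that of 5 epithelial miRNAs was 0.928 to 1.06% and 0.895 to 1.43%, with no marker of either list at 0. Nearly all of the red blood cell sum was mir-486a and mir-486b, which also had means of 1403 and 1394 CPM in Ctrl cells. mir-451a alone was at 1155 to 1934 CPM with CD and 1852 to 2420 CPM with HFD. The members' share that belongs to other cells was not tested, and in such bulk libraries fewer cells of a type and less RNA per cell cannot be told apart. In TM4 the epithelial list summed to 1.28 to 2.38 CPM with up to 3 of its 5 markers at 0. mir-202, a Sertoli cell miRNA of the testis, was at 0 in 3 of 6 libraries and at most 0.178 CPM, so this 1 marker of the labelled cell type was all but absent. The identity of the cells was not tested.

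Members took up most miRNA reads of sperm. The 8 hairpins together held 64.2% ± 0.719 (SD, n = 3) of miRNA reads with CD and 60.9% ± 1.38 (n = 3) with HFD, and less in TM4, with 41.4% ± 1.60 for Ctrl, 37.3% ± 2.06 for CC and 32.9% ± 1.85 for Ang OE (n = 2 each). These sums rest on few hairpins. The mir-10 family alone made up 61.5% ± 1.01 of miRNA reads in CD sperm and 26.8% ± 1.01 in Ctrl cells. The mir-99/100 family held 2.12% ± 0.388 in CD sperm and 12.9% ± 0.513 in Ctrl cells. The mir-125 family was the smallest of the 3 in both, at 0.573% ± 0.0428 and 1.80% ± 0.0784.

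**Figure D1:**
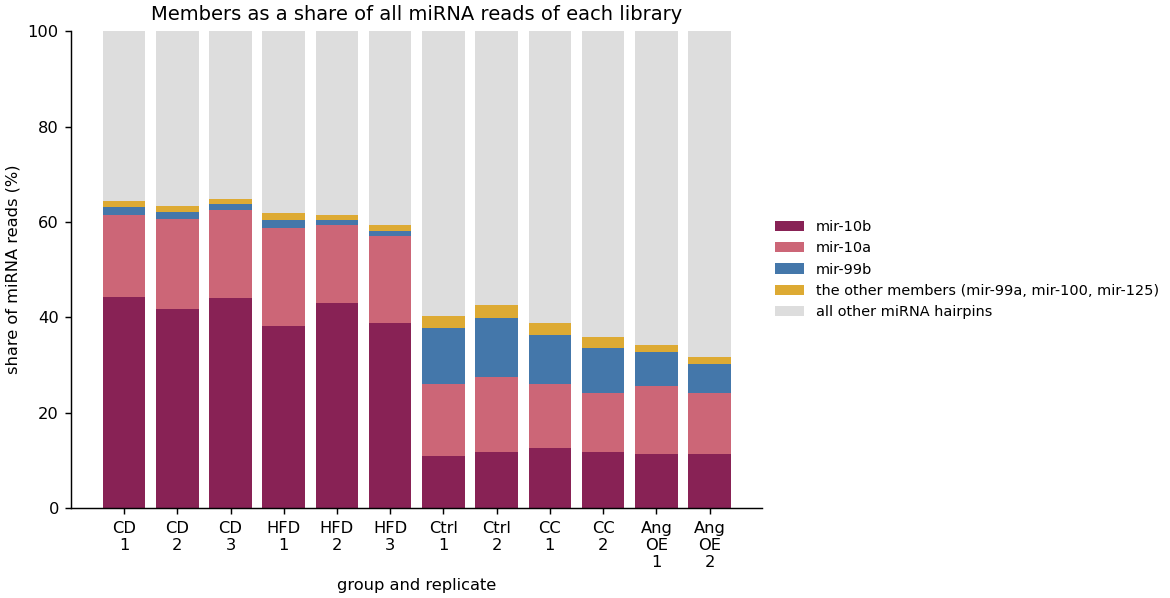
Each bar is 1 library, and its height is the share of all miRNA reads in percent, divided into mir-10b, mir-10a, mir-99b, the other members together and all remaining hairpins. The members fill 59.3 to 64.8% of the 6 sperm bars, mostly as mir-10b, and 31.6 to 42.6% of the 6 TM4 bars, where mir-99b takes a visible part.

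mir-10b was the most abundant hairpin and mir-10a the next in all 6 sperm libraries. mir-10b held 44.3%, 41.7% and 44.1% of miRNA reads in the CD libraries and 38.3%, 43.0% and 38.7% in the HFD libraries. mir-10a held 17.2%, 18.8% and 18.5% with CD and 20.5%, 16.3% and 18.3% with HFD. Both hairpins overlapped between the diets, and HFD replicate 2 lay with the CD libraries for mir-10b. In TM4 the order was turned: mir-10a was first in 5 of 6 libraries, and mir-143 led in Ang OE replicate 2. mir-10a was at 15.1% and 15.7% in Ctrl, and mir-10b at 11.0% and 11.8%. The ratio of mir-10b to mir-10a reads, which no library scaling changes, was 2.40 ± 0.180 with CD (n = 3), 2.21 ± 0.395 with HFD (n = 3) and 0.738 ± 0.0154 in Ctrl (n = 2). It was above 1 in each sperm library and below 1 in each TM4 library. Because the 2 strands differ at only 1 base and the authors allowed 1 mismatch, some reads may be assigned to the wrong paralog.

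Among the members mir-99b came next in sperm, far below the mir-10 pair and at ranks 7 to 12 among all hairpins. It was at 17046, 15401 and 11412 CPM with CD and at 16822, 10867 and 10931 CPM with HFD. mir-100 was at 5708, 5794 and 4371 CPM with CD and 6554, 4251 and 4590 CPM with HFD. Below these followed mir-125a at 2814 ± 204 CPM in CD sperm, then mir-125b-1, mir-125b-2 and mir-99a, which overlapped each other at 1500 ± 115, 1411 ± 111 and 1332 ± 224 CPM (n = 3 each). In Ctrl cells mir-99b stood beside the mir-10 pair at 117577 and 123398 CPM and overlapped mir-10b. mir-99a was the lowest member there, at 428 and 468 CPM, and mir-125b-1 and mir-100 overlapped at 8366 ± 265 and 7651 ± 982 CPM (n = 2 each).

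**Figure D2:**
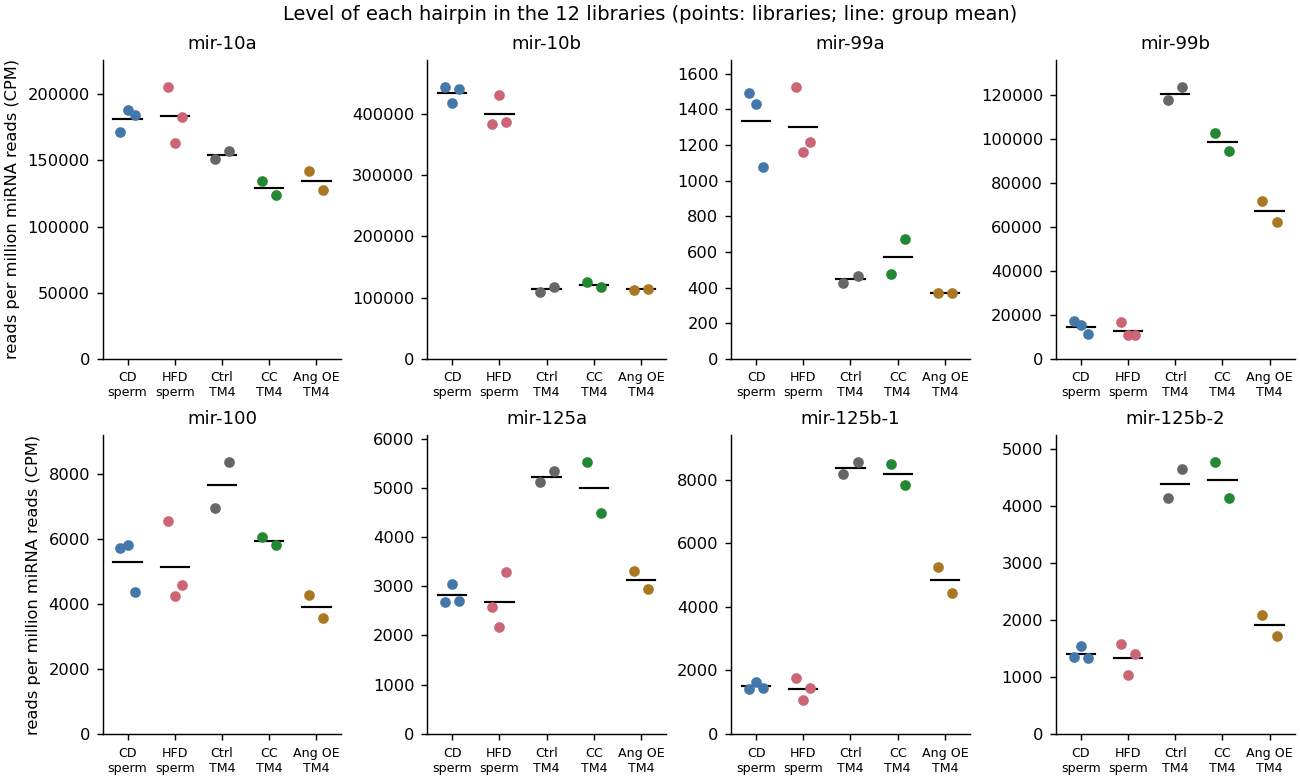
Each panel is 1 hairpin, with CPM of miRNA reads on an axis that starts at 0, points for the 12 libraries and a line for each group mean. mir-10b and mir-99a are highest in the sperm libraries and mir-99b, mir-125b-1 and mir-125b-2 in TM4, and the Ang OE points of mir-99b, mir-100 and all mir-125 hairpins lie below those of Ctrl.

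Hairpins of 1 cluster were not read in a fixed proportion. On chromosome 17, where mir-99b and mir-125a lie within 683 bases, the ratio of mir-99b to mir-125a reads was 5.20 ± 1.07 in CD sperm (n = 3) and 23.0 ± 0.114 in Ctrl cells (n = 2). The ratio of mir-99b to let-7e of that cluster was 22.5 ± 4.43 and 51.6 ± 3.46. On chromosome 9 the ratio of mir-100 to mir-125b-1 was 3.53 ± 0.511 in CD sperm and 0.913 ± 0.0885 in Ctrl cells. mir-100 and mir-99a, the near-identical pair from 2 clusters, stood at 3.98 ± 0.135 in CD sperm and 17.1 ± 1.11 in Ctrl cells. Their strands differ at only 1 base and 1 mismatch was allowed, so some reads may be divided between them or assigned to the wrong one. The count of mir-99a, the less abundant of this pair, carries most of that doubt. CD sperm and Ctrl cells do not overlap in any of these ratios, which were compared without a test.

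The mir-125b hairpins need care because their 5′ strand is the same, and the authors' counting divided such reads evenly between both. mir-125b-1 and mir-125b-2 were nearly equal in sperm, with a ratio of 1.06 ± 0.0237 for CD and 1.06 ± 0.0406 for HFD (n = 3 each). In TM4 the ratio was 1.91 ± 0.0990 for Ctrl, 1.84 ± 0.0795 for CC and 2.55 ± 0.0270 for Ang OE (n = 2 each). If every shared read was divided evenly, the excess is a lower limit of the reads that matched only mir-125b-1. It came to 2.04 to 4.24% of all mir-125b reads in CD sperm, 29.5 to 32.8% in Ctrl and 43.3 to 43.9% in Ang OE.

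**Figure D3:**
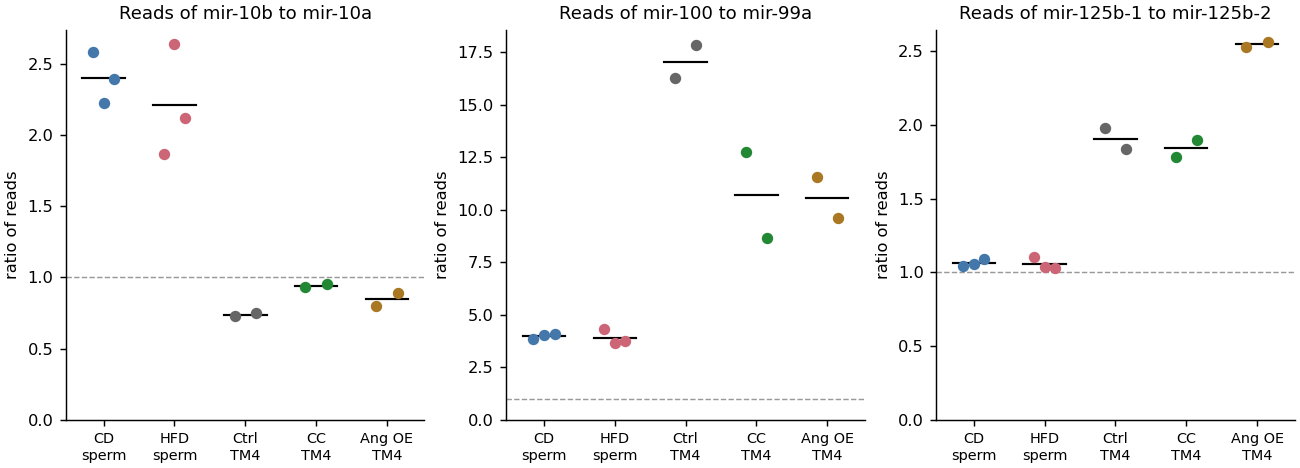
Each panel plots the ratio of the reads of 2 hairpins in each library, with group means as lines and a dashed line at 1. The ratio of mir-10b to mir-10a exceeds 1 in sperm only, that of mir-100 to mir-99a is highest in Ctrl at 16.3 and 17.8, and that of mir-125b-1 to mir-125b-2 is highest in Ang OE at 2.53 and 2.57.

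The first comparison asks whether the paternal diet changed these miRNAs in sperm. No member passed the test between HFD and CD, and none was separated in CPM, where 6.21% of all hairpins tested were. edgeR's quasi-likelihood test with Benjamini-Hochberg adjustment called 0 of 8 members and 0 of all 451 hairpins tested, a background of 0%, at an adjusted p under 0.05. At an unadjusted p under 0.05 there were 31 hairpins, 6.87%, and again 0 members, and DESeq2 called 8 hairpins, none of them a member. The 31 became 80 of 446 without HFD replicate 1 and 15 of 447 without CD replicate 2, by edgeR. With normalization by TMM, which scales libraries so that most hairpins do not differ, all 8 members had a log2 fold change below 0, as did 53% of all hairpins. The median of the members was -0.19, against -0.01 over all hairpins tested. mir-99b had the lowest value, -0.30 ± 0.22 (SE), and mir-10a the one nearest to 0, -0.10 ± 0.14, both with an adjusted p of 0.989. This order rests on single libraries, since mir-99b was at -0.04 without CD replicate 1, and mir-10b was the lowest without HFD replicate 2, at -0.34. Their sign depends on the scaling. With libraries scaled to clean reads without rRNA, the median of all hairpins rose to 0.19 and that of the members to 0.01, so that 6 of the 8 lay above 0 while the members' median stayed 0.18 below that of all hairpins, as it did with TMM. That distance depends on single libraries, at 0.07 without HFD replicate 2 and 0.23 without HFD replicate 1.

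The mir-10 sum, as a share of miRNA reads, was lower in every HFD library. It was 61.5%, 60.5% and 62.6% in the CD libraries and 58.8%, 59.3% and 57.0% in the HFD libraries. The diets thus did not overlap in this share, although they did in mir-10a and in mir-10b alone. It was looked at after the values of both hairpins were known and was not tested. In CPM of clean reads without rRNA the separation was lost: the mir-10 sum was 317517, 291439 and 300855 with CD and 294496, 319002 and 301514 with HFD, with means of 303270 ± 13206 and 305004 ± 12621 (n = 3 each). On that scale mir-10b was at 213973 ± 14038 with CD and 209295 ± 20199 with HFD, and mir-10a at 89298 ± 1006 and 95709 ± 7623 (n = 3 each).

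edgeR's test called no marker of another cell type between the diets, while DESeq2 called mir-122 higher and mir-449c lower among its 8, with adjusted p of 0.0391 and 0.0320. The 4 white blood cell miRNAs summed to 592 to 685 CPM with CD and 787 to 1435 CPM with HFD, with none at 0. Of the 4, mir-142a alone was higher in every HFD library than in every CD library, against 6.21% of all hairpins without overlap in one direction or the other, and it had a log2 fold change of 0.63 ± 0.21. mir-122, the liver miRNA, was at 4.12 to 7.51 CPM with CD and 10.1 to 24.1 CPM with HFD, by 1.33 ± 0.38. The adjusted p of mir-142a and mir-122 in edgeR's test were 0.401 and 0.399. All 7 germ cell miRNAs tested were below 0, with a median of -0.77, and the sums of their list of 8 overlapped, at 2939 to 8379 CPM with CD and 3110 to 4104 CPM with HFD. The lowest of them, mir-449c, was at 4.79 to 18.7 CPM with CD and 2.97 to 3.96 CPM with HFD, by -1.68 ± 0.42 and with an adjusted p of 0.399 in edgeR's test. mir-202, a Sertoli cell miRNA, was at 6.94, 59.8 and 19.6 CPM with CD and 11.3, 7.75 and 4.86 CPM with HFD, so that the diets overlapped, by -1.87 ± 0.63 and with an adjusted p of 0.401 in edgeR's test. The part of these lists in the members' values was not tested.

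The let-7 neighbours of the members were not called between the diets, with log2 fold changes from -0.20 for let-7e to -0.03 for let-7a-2. Nor were the 4 other miRNA hairpins of the Hox clusters, mir-196a-1, mir-196a-2, mir-196b and mir-615, with a median of -0.24. mir-196b, which targets Hox mRNAs, was the 1 of them that did not overlap, at 45.2 to 53.7 CPM with CD and 39.8 to 41.6 CPM with HFD, where 6.21% of all hairpins do not overlap.

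The second comparison asks what inhibition of AMPK did in TM4 cells. No member was called in CC against Ctrl, where 22 of 533 hairpins, 4.13%, were. 4 of the 8 members had an unadjusted p under 0.05, as did 17.6% of all hairpins, and these 4 also did not overlap in CPM, as 47.1% of all did not. mir-100 was at 6956 and 8345 CPM in Ctrl and at 6052 and 5812 CPM in CC. Its log2 fold change was -0.36 ± 0.11, with an adjusted p of 0.0903 (edgeR's quasi-likelihood test, Benjamini-Hochberg adjustment). mir-100 was thus just outside the threshold. It was called without Ctrl replicate 1, at -0.51 and an adjusted p of 0.0195, and with the replicate number as a block, at an adjusted p of 0.0308. The other 13 of 15 alternatives did not call it, and without Ctrl replicate 2 it was at -0.20 with an adjusted p of 0.586.

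mir-99b of the same family was at 102750 and 94536 CPM in CC, both below Ctrl, with a log2 fold change of -0.28 ± 0.10 and an adjusted p of 0.141. mir-10a was likewise lower in both CC libraries, at 13.5% and 12.4% of miRNA reads, with -0.25 ± 0.10 and an adjusted p of 0.187. mir-99a had the opposite sign, at 475 and 673 CPM in CC and 0.36 ± 0.14, with an adjusted p of 0.173. It was called only when no filter was applied, at 0.41 and an adjusted p of 0.0390, and its value was 0.10 without CC replicate 2, with an adjusted p of 0.787. mir-10b (0.10 ± 0.10) and the mir-125 hairpins, which lay between -0.06 and 0.02, overlapped with Ctrl. Hence the near-identical mir-99a and mir-100 lay on opposite sides of 0, and their ratio was 12.7 and 8.64 in CC, below the 16.3 and 17.8 of Ctrl. Some reads of this pair may be assigned to the wrong one, so the contrast between them carries that doubt.

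The third comparison asks what angiogenin overexpression did, against the same 2 Ctrl libraries that served for CC. Ang OE cells had less of 5 members than Ctrl cells, namely all 3 mir-125 hairpins, mir-99b and mir-100, and more mir-10b by a small margin that depends on the scaling. The edgeR test called 6 of 8 members, beside 204 of 533 hairpins or 38.3%. The 5 lower calls stand beside 14.1% of all hairpins called lower, and the 1 higher call beside 24.2% called higher. Both mir-125b hairpins are among the 5, and as their 5′ strand is shared they are not independent counts. The median log2 fold change of the members was -0.49, and that of all hairpins tested was 0.06. Adjusted p-values here are from edgeR's quasi-likelihood test with Benjamini-Hochberg adjustment.

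mir-125b-2 fell most. It was at 4136 and 4655 CPM in Ctrl and at 2083 and 1727 CPM in Ang OE, so that both libraries were under the lower control. The log2 fold change was -0.94 ± 0.12 with an adjusted p of 8.4e-06. mir-125b-1 went from 8179 and 8553 CPM to 5266 and 4430 CPM, a log2 fold change of -0.52 ± 0.10 with an adjusted p of 8.2e-04. Its fall was the smaller of the pair. Since their 5′ strand is shared, the sum is the safer measure: it was 12762 ± 631 CPM in Ctrl and 6753 ± 843 CPM in Ang OE (n = 2 each), a log2 fold change of -0.65 ± 0.11 with an adjusted p of 1.3e-04. The value of mir-100, -0.70, was slightly below that of this sum. mir-125a, which has a 5′ strand of its own, went from 5122 and 5338 CPM to 3317 and 2940 CPM, by -0.47 ± 0.11 with an adjusted p of 0.00327.

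In the mir-99/100 family, mir-100 and mir-99b fell and mir-99a did not pass the test. mir-100 was at 4257 and 3563 CPM in Ang OE, with a log2 fold change of -0.70 ± 0.11 and an adjusted p of 1.3e-04. mir-99b, the most abundant of the 3, went from 11.8% and 12.3% of miRNA reads in Ctrl to 7.19% and 6.20% in Ang OE, by -0.57 ± 0.10 with an adjusted p of 2.4e-04. Neither overlapped with Ctrl. mir-99a was at 369 and 371 CPM in Ang OE, below both Ctrl libraries in CPM, but its log2 fold change after TMM was 0.00 ± 0.14 with an adjusted p of 0.996. In CPM, 7 of the 8 members were lower without overlap, where 45.2% of all hairpins were.

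The mir-10 pair gave no call that held in every alternative. mir-10b held 11.3% of miRNA reads in both Ang OE libraries, between the 11.0% and 11.8% of Ctrl. After TMM its log2 fold change was 0.27 ± 0.10 with an adjusted p of 0.0367. This call was lost in 10 of 15 alternatives, among them the removal of any 1 of the 4 compared libraries (0.20 and 0.35 after leaving out Ctrl replicate 1 or 2, 0.22 and 0.21 after leaving out Ang OE replicate 1 or 2, adjusted p from 0.0727 to 0.315), and without TMM the value was just below 0, where the median of all hairpins was -0.21. mir-10a was at 14.2% and 12.7% in Ang OE, with 0.08 ± 0.10 and an adjusted p of 0.553. The 5 members that fell were called in every alternative, with log2 fold changes from -1.24 to -0.82 for mir-125b-2, -1.01 to -0.53 for mir-100, -0.89 to -0.51 for mir-99b, -0.83 to -0.45 for mir-125b-1 and -0.78 to -0.41 for mir-125a.

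**Figure D4:**
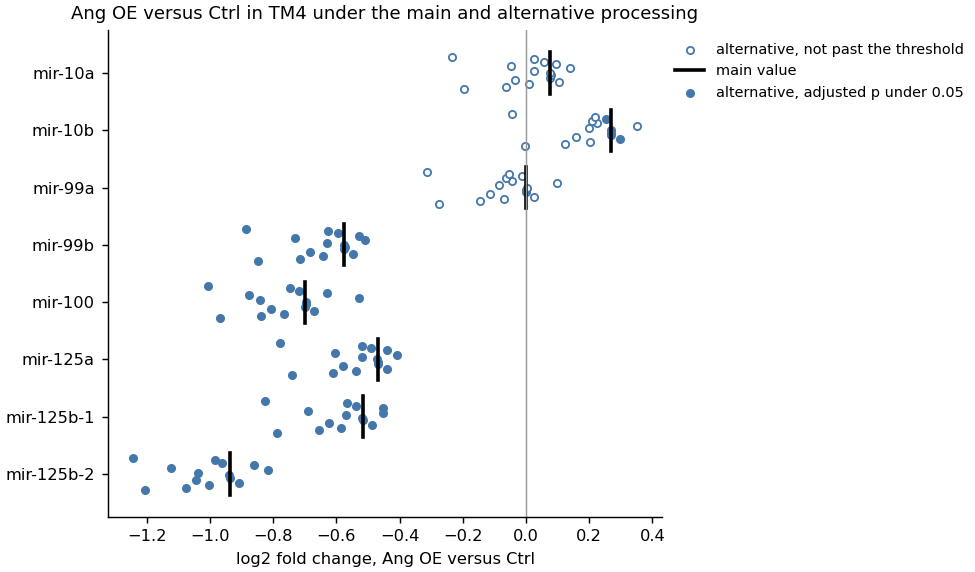
For each hairpin, the black line is the log2 fold change of Ang OE against Ctrl and the points are the same value under each alternative, filled where the adjusted p is under 0.05. All points of mir-99b, mir-100, mir-125a, mir-125b-1 and mir-125b-2 are filled and below 0, while those of mir-10a, mir-10b and mir-99a lie on both sides of 0.

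Other miRNAs rose in Ang OE, which lowers the CPM of the rest, and CPM and TMM differ here. mir-143, a miRNA of smooth muscle and stroma, was at 54354 and 48544 CPM in Ctrl and 93152 and 127843 CPM in Ang OE, and the 6 miRNAs of its list summed to 6.55 to 7.05% and 10.8 to 14.2% of miRNA reads, with none at 0. The rise of this sum was that of mir-143: of the other 4 tested, mir-145a was called higher by 0.40 but overlapped in CPM, mir-214 was called lower at -0.34 with an adjusted p of 0.0174 in edgeR's test, and mir-199a-1 and mir-199a-2 were lower in CPM without overlap and not called. Of the germ cell list, 4 of 5 tested hairpins were called higher, with a summed level of 1046 to 1090 CPM in Ctrl and 1964 to 2066 CPM in Ang OE and 1 to 3 of its 8 miRNAs at 0 in a library. Nearly all of that sum was mir-34c, at a mean of 960 CPM in Ctrl and 1895 CPM in Ang OE, and another of the called, mir-871, had 5 to 20 reads a library. Of the red blood cell list, mir-486a and mir-486b were called lower, at -0.38 each and an adjusted p of 0.0050 and 0.0049 in edgeR's test, and carried nearly all of its sum of 2737 to 2857 CPM in Ctrl and 1762 to 1784 CPM in Ang OE, while mir-451a had 5 to 15 reads a library. Of the white blood cell list, mir-155 was called higher by 0.32 with an adjusted p of 0.0196 and overlapped in CPM. The part of these lists in the members' values was not tested. Without TMM the median of all hairpins was -0.21 in place of 0.06, and 36.8% of the calls were higher in place of 63.2%. The 5 lower members stayed called under both.

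Within the clusters, no let-7 hairpin was called lower. On chromosome 9, mir-100 and mir-125b-1 fell while let-7a-2 between them rose, from 2120 and 1990 CPM to 2621 and 2316 CPM, by 0.54 ± 0.10 with an adjusted p of 3.4e-04. On chromosome 17, mir-99b and mir-125a fell and let-7e had -0.16 ± 0.10 with an adjusted p of 0.193, though it was lower in CPM without overlap, at 2394 and 2285 in Ctrl and 1823 and 1634 in Ang OE. On chromosome 16, let-7c-1 had 0.18 ± 0.10 with an adjusted p of 0.141. let-7 hairpins share much of their mature sequence with other let-7 genes, so their counts are uncertain. Of the 4 other Hox cluster hairpins, mir-196a-1, mir-196a-2 and mir-196b rose by 0.96, 0.85 and 0.65, and mir-615 had -0.25 and was not called. mir-196a comes from 2 hairpins and its counts carry the same doubt as those of mir-125b.

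The fourth comparison sets the TM4 treatments against each other. In Ang OE against CC, 7 of 8 members were called, beside 221 of 533 hairpins or 41.5%. Lower were 6 members, beside 15.2% of all hairpins, and higher was mir-10a, beside 26.3%. The 6 hold both mir-125b hairpins, whose sum was 12630 ± 922 CPM in CC and 6753 ± 843 CPM in Ang OE (n = 2 each). mir-125b-2 again had the lowest value, -0.96 ± 0.12 with an adjusted p of 3.9e-06 in edgeR's test. mir-125b-1 had -0.49, mir-125a -0.41, mir-99a -0.36, mir-100 -0.33 and mir-99b -0.29. mir-10a had 0.33 ± 0.10 with an adjusted p of 0.0120, and mir-10b 0.17 ± 0.10 with an adjusted p of 0.171. For mir-99a this rests on CC replicate 2, the library with 673 CPM: without it the value was -0.10 with an adjusted p of 0.560.

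Only the mir-125b hairpins kept their call in this comparison under every alternative. When 1 library was left out, 4 or 5 members were called, the 4 after dropping either CC library or Ang OE replicate 2. mir-100 was lost in each of these 3, at adjusted p from 0.0790 to 0.141. mir-99b was lost without CC replicate 1 or Ang OE replicate 2, and mir-125a without CC replicate 1. mir-99a was also lost without either Ang OE library, at an adjusted p of 0.0646 each, and mir-10a without CC replicate 2 or Ang OE replicate 1. mir-10a kept its call in only 7 of 15 alternatives, had values down to 0.05 with an adjusted p of up to 0.725, and overlapped between the groups in CPM.

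**Figure D5:**
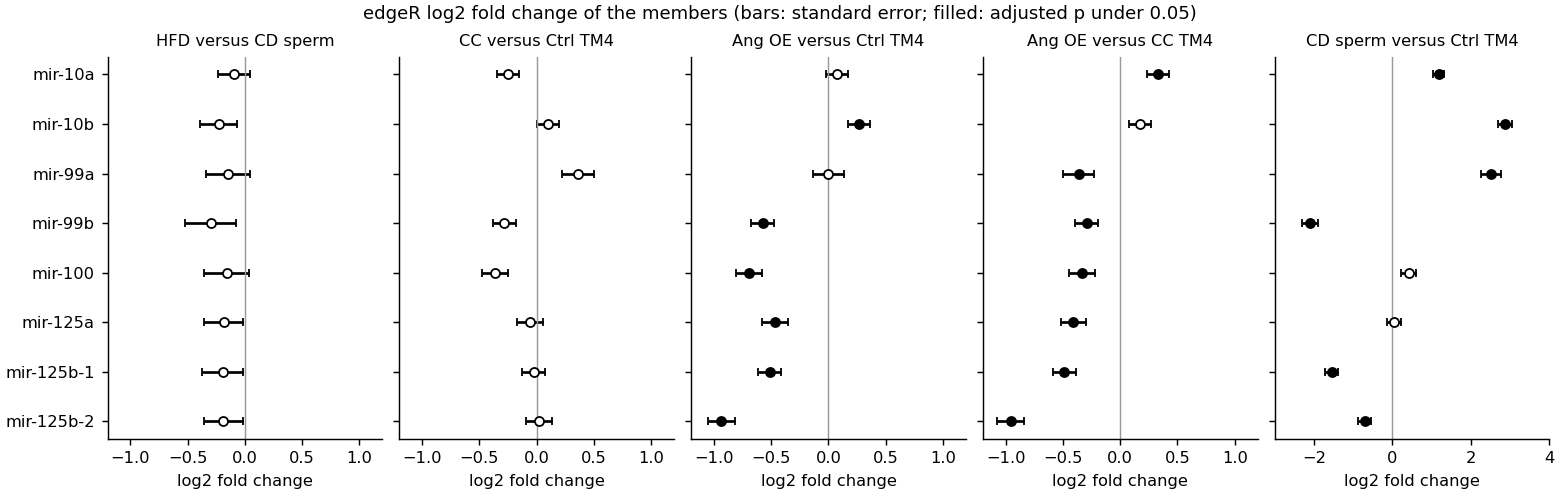
Each panel is 1 comparison, with the edgeR log2 fold change of each member, its standard error as a bar and a filled point where the adjusted p is under 0.05. The axis of the last panel is wider. No point is filled for HFD against CD or for CC against Ctrl. For Ang OE against Ctrl 5 are filled below 0 and mir-10b above it, where 38.3% of all hairpins were called. For Ang OE against CC 6 are filled below 0 and mir-10a above it, where 41.5% were called. In CD sperm against Ctrl cells mir-10b is highest at 2.88 and mir-99b lowest at -2.10.

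The last comparison sets CD sperm against Ctrl cells, which differ in cell type, in host and in being cultured, so it describes levels and no treatment. It called 6 of 8 members, beside 511 of 648 hairpins or 78.9%, with 3 members higher and 3 lower beside 37% and 41.8% of all hairpins. Higher in sperm were mir-10b by 2.88 ± 0.18 and mir-99a by 2.52 ± 0.26 on the log2 scale, with adjusted p of 1.2e-09 and 4.4e-07 in edgeR's test, and mir-10a by 1.17 ± 0.13. Lower were mir-99b, by -2.10 ± 0.20 with an adjusted p of 1.3e-07, mir-125b-1 by -1.54 ± 0.17 and mir-125b-2 by -0.70 ± 0.16. The mir-125b hairpins share reads, and their sum was 2912 ± 224 CPM in CD sperm (n = 3) and 12762 ± 631 CPM in Ctrl cells (n = 2). mir-99a was at 1492, 1429 and 1076 CPM in the sperm libraries and 428 and 468 CPM in the cells, while mir-99b, with the same seed, was at 11412 to 17046 CPM in sperm and 117577 to 123398 CPM in the cells. The values of mir-99a carry the doubt over reads that it may share with mir-100.

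Only 4 of these held in all alternatives, mir-10b, mir-99a, mir-99b and mir-125b-1, whose direction did not change with the scaling. The median of all hairpins was -0.44 with TMM, -1.37 with miRNA reads as library size, -1.61 with clean reads and 0.06 with DESeq2. Against that shift, mir-10a went to 0.24 without TMM and to just below 0 with clean reads, where its mean was 89298 CPM of clean reads in sperm and 89496 in Ctrl cells. mir-100 and mir-125a, at 0.41 and 0.04, changed sign between scalings, and though not called here they passed the threshold in 11 and 6 of the 15 alternatives, with values from -0.77 to 1.03 and from -1.13 to 0.56. mir-125b-2 was not called without CD replicate 2 (-0.22), CD replicate 3 (-0.24) or Ctrl replicate 2 (-0.13), nor with DESeq2, while mir-100 was called higher without each of these 3 libraries, at 0.88, 0.95 and 1.03, and mir-125a without either CD replicate, at 0.53 and 0.49.

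Over all 12 libraries, each member's profile of log2(CPM + 1), centred on its own mean, was compared with the 294 other hairpins that had at least 10 reads in each library. The nearest was mir-361 for mir-125b-1, with a root mean square difference of 0.13 on the log2 scale, and mir-3535 for mir-10a, at 0.17. mir-328 was nearest to mir-100 (0.21), mir-132 to mir-125b-2 (0.22), let-7d to mir-125a (0.24), mir-350 to mir-99b (0.24), mir-1843b to mir-10b (0.25) and mir-23b to mir-99a (0.27). For comparison, the median difference to all these hairpins was between 0.79 for mir-125a and 1.64 for mir-10b. These values describe 12 libraries in which the step from sperm to TM4 is the main difference, and they share the library scaling.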

How the data were processed

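Small RNA libraries (TruSeq kit) were trimmed by the authors with Trimmomatic 0.40, checked with FastQC 0.12.0 and annotated with SPORTS1.1, which aligns reads of 15 to 45 nt by bowtie with 1 mismatch; the submitters' processing notes name mm10. The deposited values are estimated counts per hairpin, in which the authors' run divided reads that matched several hairpins, without normalization. Genome-matched and unmatched reads were added. Counts were rounded and tested with edgeR 4.0.16 in R 4.3.3 (quasi-likelihood test, TMM over miRNAs, Benjamini-Hochberg adjustment over all hairpins tested). Hairpins were kept that reached 10 reads in 3 or more sperm libraries for the diets, or in 2 or more TM4 libraries for the treatments. For sperm against TM4, 10 reads in any 2 or more of the 12 libraries were enough. Sperm diets were fitted alone, the TM4 groups in 1 model of 6 libraries, and sperm against TM4 in a model of all 12. Calls have an adjusted p under 0.05. Every member was described in each comparison, with the let-7 hairpins of its clusters, the other Hox cluster hairpins, and the nearest profile by log2(CPM + 1). Members and lists were chosen with earlier results of these data known. Depth was 11412945 to 35704399 miRNA reads per library, and replicates differed by more than counting error. Alternatives used DESeq2 1.42.0 and ComBat-seq (sva 3.50.0, with the replicate number assumed as batch), other scalings, filters and sample sets. The edgeR step was tested on simulated data. Tables were made in Python 3.11.15 (pandas 2.3.3) and figures in matplotlib 3.10.9.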

Additional observations from a re-analysis of the deposited data

How the results depend on the processing

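For HFD against CD, 0 members were called in each of the 15 alternatives, and DESeq2 called 8 of all hairpins against 0. Several log2 fold changes that had not been called changed sign, and the shift was common to all hairpins: their median was -0.01 with TMM, 0.10 by miRNA reads and 0.19 by clean reads, and the members' median lay 0.18 below it in these 3, but 0.07 below it without HFD replicate 2 and 0.23 without HFD replicate 1. With clean reads without rRNA as library size, those that changed sign were mir-10a 0.10, mir-99a 0.0393, mir-100 0.0289, mir-125a 0.0143, mir-125b-1 0.0003 and mir-125b-2 0.0058, and with miRNA reads as library size mir-10a 0.0178. With a library left out, mir-10a ranged from -0.15 to 0.0033, mir-99a from -0.21 to 0.0802 and mir-100 from -0.27 to 0.0351. For CC against Ctrl, 1 member was called without a filter (mir-99a), 1 with the replicate block (mir-100) and 0 to 1 with a library left out. There mir-125b-1 was 0.0010 with DESeq2 and 0.0122 without a filter, mir-125b-2 was -0.0146 with miRNA reads other than mir-10 as library size (chosen after seeing the data), and with a library left out mir-125a ranged from -0.25 to 0.0920, mir-125b-1 from -0.12 to 0.0393 and mir-125b-2 from -0.12 to 0.13. Over all hairpins the block gave 35 calls against 22, and leaving out CC replicate 1 or CC replicate 2 gave 0 each (76 and 68 at an unadjusted p under 0.05, by edgeR). Where leaving out a library left a group with 1, that library was assumed to vary like the others.

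For Ang OE against Ctrl, 5 or 6 members were called in each alternative, and the members' median lay 0.55 below that of all hairpins both with and without TMM. mir-10a was -0.20 with miRNA reads, -0.0643 with clean reads and -0.23 with miRNA reads other than mir-10 as library size, -0.0335 with a filter of at least 100 reads and -0.0477 to 0.14 with a library left out. mir-10b was -0.0047 with miRNA reads and -0.0439 with miRNA reads other than mir-10 as library size, and mir-99a was 0.0269 without a filter, 0.0037 with the replicate block and -0.0854 to 0.0970 with a library left out. For Ang OE against CC, 6 or 7 members were called, and 4 to 5 with a library left out; mir-10b was -0.10 with miRNA reads and -0.10 with miRNA reads other than mir-10 as library size. For CD sperm against Ctrl cells, 6 to 8 members were called. Without TMM mir-100 was -0.53 and mir-125a -0.89, with clean reads mir-10a was -0.0032, mir-100 -0.77 and mir-125a -1.13, and mir-125a was -0.0888 without a filter and -0.0263 with the replicate block. A filter of at least 100 reads left 396 hairpins, of which 340 were called against 511 of 648. Apart from mir-100 for CC and for sperm against TM4, the block changed no member's call. Replicate numbers did not pair the libraries: same-numbered libraries had correlated deviations of -0.34, -0.24 and 0.07 in sperm and of -0.02, -0.10 and 0.16 between the TM4 groups. The causes of these changes were not tested. Depth did not limit the members, which had reads in every library, but 2 or 3 libraries per group limit every test.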
